A study of Homo sapiens with 9 samples.

Results

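The distal part of the short arm of chromosome 3 lies between the telomere and XCR1, the gene cut by the crXCR1 guide, and its expressed genes are described here one by one and as a region. The 215 members were the genes of chromosome 3 that end before 45 Mb (GRCh38) and were selected on a measured value, a mean of at least 1 CPM (counts relative to the library total, scaled by TMM) over the 9 libraries. They were 215 of 418 entries in that stretch and of 38146 genes in the table. Of the other entries, 58 had no count in any library and 46 were under 1 CPM but still tested. The members comprised 179 protein-coding genes and 36 long noncoding RNAs, and all 215 passed the filter on low counts used for the tests. For 1 member, XIRP1, the minimum was met only through its crXCR1 libraries, since its mean over the 6 NTC and crSUGP1 libraries was 0.883 CPM. The stretch was proposed with a shift of its genes in crXCR1 libraries already known, so the size and direction of that shift are given as a description. The results turn on how the single members stand to it.

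RNA of the human osteosarcoma line U-2 OS was sequenced from 3 independent experiments, each with 1 library per guide. Cells of all groups received Cas9 as mRNA and 1 synthetic crRNA, which was a non-targeting guide (NTC), a guide against XCR1 (crXCR1) or a guide against SUGP1 (crSUGP1). XCR1 encodes a chemokine receptor confined to dendritic cells, so crXCR1 served in the study as a control for a break in DNA, and SUGP1 encodes a putative splicing factor on 19p. Each library came from the uncloned cells of 1 flask, so edited and unedited cells were mixed, and the labels give 72 h after crRNA delivery only for the plate assays.

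Cas9 makes a double-strand break, and it is known from other work that such a break can in some cells be followed by loss of the chromosome arm between the cut and the telomere. The mRNA level of most autosomal genes follows their copy number closely, while a gene whose transcript is held near its usual level despite a change in dose is called buffered. Distal 3p is known for tumour suppressors such as VHL and for housekeeping genes such as those of ribosomal proteins. DNA copy number was not measured in these libraries, and in bulk RNA fewer cells with a transcript and less of it per cell cannot be told apart.

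The target of crXCR1 is shown first, since every distance below is counted from its gene. The target named in the methods of the study was matched to the minus strand of chr3:46021808-46021827, in coding exon 2 of XCR1, and is in capitals within 20 flanking bases on one side and the PAM (ggg) with 20 bases on the other, chr3:46021785-46021847.
crXCR1 target: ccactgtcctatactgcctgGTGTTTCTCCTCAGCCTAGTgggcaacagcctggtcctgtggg
The bases before the start of 2 members follow from RefSeq (GRCh38.p14), with each CG in capitals, a dinucleotide that reads the same on both strands. XIRP1 is the member that stood farthest from the others, and SEC13, chosen after its values were seen, is a member of high level that stood close to them. The stretches lie on the minus strand at chr3:39192597-39192845 (249 bases) and chr3:10321113-10321362 (250 bases), and the latter also holds part of the antisense gene GHRLOS.
XIRP1: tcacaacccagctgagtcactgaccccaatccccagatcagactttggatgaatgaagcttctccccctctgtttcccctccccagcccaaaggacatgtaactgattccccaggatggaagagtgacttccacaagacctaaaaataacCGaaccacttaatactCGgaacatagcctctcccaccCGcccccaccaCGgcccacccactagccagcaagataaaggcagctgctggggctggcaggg
SEC13: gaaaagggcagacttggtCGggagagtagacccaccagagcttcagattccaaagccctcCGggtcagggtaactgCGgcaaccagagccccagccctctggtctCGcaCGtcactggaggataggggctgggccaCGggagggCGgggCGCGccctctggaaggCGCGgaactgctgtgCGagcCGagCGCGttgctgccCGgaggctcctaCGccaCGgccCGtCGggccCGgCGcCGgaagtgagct
The XIRP1 stretch held 4 CG and the SEC13 stretch 23. A RefSeq window within 500 bases of the start in the count table was found for 129 members, with a median of 21 CG in 250 bases, the same median as over 9298 genes of the genome at 1 CPM or more. Fewer than 10 CG were found in 11.6% of the member windows and in 15.2% of those 9298. Across the 129 members with a window, CG count and fold change had a Spearman's rho of -0.15 (Pearson's r -0.20), and across the 77 of them at 20 CPM or more rho was -0.01 (r 0.07). Both are across genes, which are not independent replicates. Fewer than 10 CG were found for 3 of the 7 members above 0 that had a window and for 12 of the 122 below 0. XIRP1 is among those 3 and also enters the rho and r over the 129. It is a member only through its higher crXCR1 libraries, so nothing is read from this contrast. Level moved with CG count too, with a median of 10.6 CPM for members under 10 CG and 26.7 CPM for the others, and its part was not tested.

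The libraries held 68712738 to 107952835 counts. The targeted genes matched the labels: XCR1, too low to be tested, had 0, 0 and 1 counts in NTC, 13, 13 and 14 in crXCR1 and 0 in each crSUGP1 library, and SUGP1 was at 6.52 to 7.87 CPM in crSUGP1 against 28.2 to 31.6 CPM elsewhere. Of 6 mesenchymal markers, 5 were above 1 CPM in every library (COL1A2 was at 0.0975 to 0.222 CPM). Of the leukocyte markers, CD3E was at 0 in every library and PTPRC at 0.333 to 0.582 CPM. The summed level of that list was 0.443 to 0.643 CPM in NTC, 0.472 to 0.658 CPM in crXCR1 and 0.646 to 0.844 CPM in crSUGP1. Of the epithelial markers, EPCAM was at 2.84 to 4.37 CPM, CDH1 at 0.830 to 1.62 CPM and KRT5 at 0.634 to 1.23 CPM. SNAP25 and GFAP, which mark neural cells, were at 6.63 to 8.98 and 3.01 to 4.25 CPM. Same-numbered libraries shared deviations from their groups, so values are also given by experiment. Transcripts of the mitochondrial genome took 4.03 to 5.01% of counts, with overlapping ranges in the 3 groups.

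Most members were slightly lower in crXCR1 libraries than in NTC libraries, by about the same amount. The median log2 fold change of the 215 members was -0.18, a change of -12.0%, and the middle 50% of them lay between -0.23 and -0.13. Of the 215, 202 were below 0 (94.0%), against 52.6% of the 16794 genes at 1 CPM or more and a median of -0.004 over those genes. By experiment the member median was -0.16, -0.19 and -0.20 (SD 0.0224, n = 3). Against crSUGP1 the member median was -0.21 with 187 of 215 below 0 (median over all genes -0.01), and it was -0.20, -0.18 and -0.29 by experiment. Both comparisons use the same crXCR1 libraries. In crSUGP1 against NTC the member median was 0.03, and 83 of 215 were below 0 (38.6%). Over the 16794 genes the median was 0.005, with 48.6% below 0. Lower in 0 of 3 experiments were 75 of the 215 members, against 4234 of the 16794 genes.

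Library by library, the median member stood at -0.01, 0.03 and -0.02 on the log2 scale relative to the NTC mean in the 3 NTC libraries, at -0.18, -0.16 and -0.20 in the crXCR1 libraries, and at 0.01, 0.03 and 0.05 in the crSUGP1 libraries. The 3 crXCR1 libraries were thus apart from the other 6, with no overlap. Together the members took 0.972, 1.01 and 1.01% of counts in NTC, 0.874, 0.890 and 0.888% in crXCR1, and 0.982, 1.00 and 1.07% in crSUGP1.

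On the other side of XCR1 the values were closer to 0. The 10 genes at 1 CPM or more between 45 Mb and XCR1, outside the selected stretch, had a median of -0.26 on the log2 scale, and all 10 were below 0. The 668 genes on the other side of XCR1 had a median of -0.02, from -0.05 to -0.0007 in windows of 10 Mb, with 62.9% below 0. Nearest to XCR1 on that side, 15 of the 17 genes within 2 Mb were below 0. Their median was -0.06, against -0.26 for the 10 genes before XCR1. The nearest of the 17, CCRL2 (1.46 CPM), was at -0.33, and the next, LINC02009 and ALS2CL, were at -0.11 and -0.06. Between 2 and 5 Mb 50 of 86 were below 0 (median -0.01). The values thus changed near XCR1, and the exact place of the change was not tested. The 15901 genes of the other chromosomes had a median of -0.003 with 51.6% below 0. Genes telomeric of the other cut gave a like value with the other guide: the 523 genes of chromosome 19 telomeric of SUGP1 had a median of -0.18 in crSUGP1 against NTC (-0.17, -0.07 and -0.32 by experiment) and of 0.01 in crXCR1 against NTC. These are descriptions, with no test of one region against another.

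Within the selected stretch, fold change did not follow distance from the cut. Members lay from 1.04 Mb (ZDHHC3) to 43.0 Mb (CNTN4) from XCR1. In windows of 5 Mb, starting next to XCR1, the median log2 fold change was -0.18 (n = 36), -0.18 (37), -0.20 (20), -0.18 (8), -0.16 (10), -0.20 (12), -0.21 (40), -0.20 (39) and -0.13 (13). The window at the end of the arm was the nearest to 0, and it was nearer to 0 than the member median in experiments 1 and 2 (-0.11 and -0.12) but not in experiment 3 (-0.20). Across the 215 members, fold change and distance were unrelated (rho 0.02), and likewise across the 115 members at 20 CPM or more (rho 0.04). Gene span gave rho -0.07. These are across genes of the same libraries, which are not independent replicates. The 10 genes between 45 Mb and XCR1, which are no members, lay lower (median -0.26) than any of these windows.

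Level mattered for how tightly the members followed the shift. All 99 members at 20 to 100 CPM and all 16 at 100 CPM or more were below 0, with medians of -0.20 and -0.19. At 5 to 20 CPM, 44 of 46 were below 0 (median -0.17), and at 1 to 5 CPM 43 of 54 (median -0.13). The range of the middle 50% narrowed with level, from 0.179 through 0.123 and 0.0745 to 0.0427 on the log2 scale. Genes of other chromosomes at the same levels had ranges of 0.156, 0.0977, 0.0686 and 0.0546, and the median SE of a member narrowed likewise, from 0.15 through 0.10 and 0.08 to 0.07.

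The smaller median of low members was shared by low genes elsewhere. On other chromosomes the median log2 fold change was 0.03 at 1 to 5 CPM, 0.005 at 5 to 20 CPM, -0.009 at 20 to 100 CPM and -0.02 at 100 CPM or more. Set against these, the members were lower by a difference of -0.17, -0.17, -0.20 and -0.18 in the same order, so the distance of the members from other genes of their level was similar at every level. The correlation of fold change with level was -0.32 (rho) over members and -0.21 over 15901 genes of other chromosomes.

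Members of high level gave the clearest values. RPSA, a protein of the small ribosomal subunit and the member of the highest level, was at 1021, 1055 and 1001 CPM in NTC, 913, 905 and 894 CPM in crXCR1, and 1034, 1046 and 1107 CPM in crSUGP1. Its 3 crXCR1 libraries lay below the other 6, with a log2 fold change of -0.18 ± 0.05 (SE) against NTC. CTNNB1, which encodes β-catenin of cell adhesion and Wnt signalling, was at 256, 274 and 275 CPM in NTC, 232, 232 and 229 CPM in crXCR1, and 288, 291 and 315 CPM in crSUGP1 (-0.22 ± 0.06 against NTC). Here the 3 groups did not overlap, and the crSUGP1 libraries were the highest.

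The other members of the highest level behaved alike. RPL14, RPL15 and RPL32, which encode proteins of the large ribosomal subunit, were at -0.19, -0.15 and -0.13. CRTAP, needed for prolyl hydroxylation of collagen, was at -0.17, STT3B, a catalytic subunit of oligosaccharyltransferase, at -0.21, and SETD5, a SET-domain chromatin protein, at -0.19. OSBPL10, a lipid-binding protein, was at -0.20, but its NTC libraries ran from 142 to 191 CPM and overlapped with crXCR1 (125 to 164 CPM). FGD5-AS1, a long noncoding RNA that lies opposite FGD5 and NR2C2, was at -0.21. Among all 115 members at 20 CPM or more, the values ran from -0.32 (TMEM43) to -0.03 (LRRN1), and 109 of the 115 lay within 0.1 of the member median.

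DYNC1LI1, a light intermediate chain of the dynein motor that the study was about, was at 61.3, 65.3 and 54.0 CPM in NTC, 57.1, 53.2 and 48.4 CPM in crXCR1, and 67.1, 67.5 and 60.9 CPM in crSUGP1. NTC and crXCR1 overlapped, and both were lowest in experiment 3, while within each experiment crXCR1 was lower (-0.10, -0.30 and -0.16). Its fold change of -0.19 ± 0.09 was that of the region.

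How many members were lower in every experiment was counted next. Of 215 members, 170 (79.1%) were lower in crXCR1 than in NTC in 3 of 3 experiments, against 15.6% of all genes at 1 CPM or more. At 20 CPM or more these were 109 of 115, and under 5 CPM 22 of 54. Against crSUGP1 they were 155 (72.1%), where 30.1% of all genes did so. In crSUGP1 against NTC they were 37 (17.2%), against 23.8% of all genes. For 79 members (36.7%) the 3 crXCR1 libraries lay below all 6 others, against 1.1% of all genes. Without experiment 3 these were 132 members (6.94% of all genes), and without experiment 1 or 2 they were 99 (4.45%) and 107 (2.83%).

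Gene by gene, few members passed a test. In crXCR1 against NTC, edgeR's quasi-likelihood test called 0 of 215 members, and 0% of the 21071 genes tested, where a call needs an adjusted p (Benjamini-Hochberg) no higher than 0.05 and a log2 fold change of 0.5 or more in either direction. At an unadjusted p under 0.05, 87 members were lower (40.5%), against 0.603% of all genes, and 1, XIRP1, was higher. DESeq2 gave an adjusted p to 143 of the 215 members, so the others could not pass. Of the 143, 0 passed both limits, and 11 passed the adjusted p alone. They included EDEM1, MTMR14, RBSN, UBE2E2, CMTM7, CRTAP, ACAA1, GORASP1, SEC22C and KIAA1143. All 11 were lower, and they were all of the genes that DESeq2 called lower in the genome (0.101% of those given an adjusted p). XIRP1 was not among the 11, although its DESeq2 log2 fold change was 2.04. Whether XIRP1 was given an adjusted p is not reported here, so its absence is not read as a failed test. The study, with an earlier version of DESeq2 and the same limits, reported XIRP1 as the only mRNA that differed between NTC and crXCR1. The cause of this difference was not tested. With the experiment as a block in edgeR, 2 members passed the adjusted p, against 0.0142% of all genes: TMEM43, lower (adjusted p = 0.0268), and XIRP1, higher (adjusted p = 4.0e-06). XIRP1 is a member only through its higher crXCR1 libraries, so nothing is read from its p or its place in these counts.

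Against crSUGP1, 2 members were called, IRAK2 lower and XIRP1 higher, where 0.774% of all genes were. Nothing is read from the call of XIRP1, a member only through its higher crXCR1 libraries. The call of IRAK2 was lost without NTC replicate 1 and without any single crXCR1 or crSUGP1 library, and that of XIRP1 without crXCR1 replicate 1 or 2 or any single crSUGP1 library. On the adjusted p alone, 19 members were lower (8.84%), against 0.46% of all genes, and with the block 119 (55.3%), against 9.99%. The 19 included SEC13 of the COPII coat and the nuclear pore (-0.41 ± 0.06, edgeR adjusted p = 0.0183), CTNNB1 (-0.37 ± 0.06, adjusted p = 0.0179), HRH1, a histamine receptor (-0.48 ± 0.07, adjusted p = 0.0126), and STT3B (-0.35 ± 0.07, adjusted p = 0.0459). SEC13 was at 102, 113 and 99.6 CPM in NTC, 91.5, 90.7 and 84.5 CPM in crXCR1, and 119, 121 and 114 CPM in crSUGP1. All crXCR1 libraries were below the others and all crSUGP1 libraries above them.

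In crSUGP1 against NTC, where the member median was 0.03, 0 members were called by edgeR, against 0.783% of all genes. An unadjusted p under 0.05 was held by 28 members (13.0%), a share near that of all genes (13.2%). DESeq2 called 1, TMEM40 (higher), against 1.33% of the genes it gave an adjusted p. On the adjusted p alone 1 passed, GRIP2 (1.26% of all genes), and with the block 34 (15.8%), against 15.7%. GRIP2, a scaffold of glutamate receptors that overlaps SLC6A6 on the other strand, was at 14.3, 13.7 and 14.4 CPM in NTC, 13.5, 13.7 and 13.9 CPM in crXCR1, and 19.3, 20.2 and 18.4 CPM in crSUGP1. The crSUGP1 libraries were the ones apart (0.45 ± 0.06 against NTC, edgeR adjusted p = 0.0095). Its fold change between crXCR1 and NTC was -0.05 ± 0.06, so its value among the 19 came with the higher crSUGP1 libraries. XPC, which detects damage for nucleotide excision repair, was also among the 19, with 0.27 ± 0.08 in crSUGP1 against NTC and -0.15 ± 0.08 in crXCR1 against NTC.

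Departure from the shift was tested for each member by setting its crXCR1 fold change against the member median in the same edgeR fit, adjusted over all genes. With no block, 0 of 215 members departed (0% of all genes, in which other genes were set against 0). An unadjusted p under 0.05 was held by 5 of the 215, all nearer to 0 than the shift or above it. That share is no larger than a limit of 0.05 lets through with no departure. In crXCR1 against NTC, with every gene set against 0, 282 of the 21071 genes tested had such a p. At 95% confidence the interval of 87 members held the median shift and not 0. The interval of 123 held both values and so could not tell following from buffering. For 4 members the interval held 0 and not the shift: TMEM40 (0.28 ± 0.18), SRGAP3 (0.16 ± 0.14), SSUH2 (0.15 ± 0.12) and AC006059.1 (0.06 ± 0.11). For 1, XIRP1, it lay above 0, and for 0 below the shift. Some of 215 intervals at 95% confidence would miss the shift by chance, so the 4 are not read as buffered. At 20 CPM or more, 67 of 115 intervals held the shift alone, 48 held both, and 0 held 0 alone. With the block, 1 member departed (0.00949% of all genes did). It was XIRP1, which is a member only through its higher crXCR1 libraries, so nothing is read from that count.

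XIRP1, an actin-binding protein of heart and skeletal muscle 6.82 Mb from XCR1, went against the region. It was at 0.905, 0.677 and 0.445 CPM in NTC, 3.20, 3.00 and 2.17 CPM in crXCR1, and 1.11, 1.12 and 1.05 CPM in crSUGP1. The 3 groups did not overlap, and in 3 of 3 experiments crXCR1 was the highest (1.81, 2.13 and 2.26 above NTC on the log2 scale). The fold change was 2.04 ± 0.24 with a 95% interval from 1.50 to 2.58. Its departure from the shift had an edgeR adjusted p of 0.102 with no block and of 1.1e-06 with it. With a mean of 0.883 CPM outside crXCR1, it was selected through the group in which it was high, so its place among the members is a description, with nothing read from it.

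The 12 other members above 0 were low in level, and they ran from 0.009 (ZNF860) to 0.28 (TMEM40). Of all 13, 11 were under 5 CPM and 2 between 5 and 20 CPM, with a median level of 1.57 CPM. TMEM40 was at 0.958, 0.917 and 0.857 CPM in NTC, 1.26, 1.30 and 0.797 CPM in crXCR1, and 1.62, 1.56 and 1.56 CPM in crSUGP1. Its crXCR1 libraries overlapped with NTC, experiment 3 went the other way (-0.10), and crSUGP1 was higher than both. SRGAP3, a GTPase-activating protein, was at 3.23, 3.53 and 3.95 CPM in NTC, 3.31, 4.16 and 4.50 CPM in crXCR1, and 3.61, 3.90 and 4.29 CPM in crSUGP1. Here it was 0.03, 0.24 and 0.19 above NTC by experiment, with groups that overlapped. It was 1 of 3 members that were lower in 0 of 3 experiments, while 15 were lower in 1 and 27 in 2.

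The rest of the highest values were VIPR1, a receptor of vasoactive intestinal peptide (0.08 ± 0.15), ACVR2B-AS1 (0.07 ± 0.26), CNTN4, a neural adhesion protein (0.05 ± 0.21), AC006058.1 (0.04 ± 0.15) and TRANK1 (0.03 ± 0.17). Each SE was as large as the value or larger, so none could be set apart from 0. VIPR1, ACVR2B-AS1, SRGAP3 and AC006059.1 overlap a gene on the other strand, and no source says whether reads were counted by strand. Such overlaps were held by 7 of the 13 members above 0 and by 114 of the 202 below 0 (53.8 and 56.4%).

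Candidates for buffering were sought among members at 50 CPM or more, since errors narrowed with level. Those of BHLHE40 (0.17) and TADA3 (0.11) stayed wide even so. The 6 nearest to 0 were NKTR, a cyclophilin of natural killer cells and other tissues (-0.10 ± 0.07), RPL32 (-0.13 ± 0.07), OGG1, which removes oxidised guanine from DNA (-0.14 ± 0.05), BHLHE40, a transcriptional repressor (-0.14 ± 0.17), TADA3, an adaptor of histone acetyltransferases (-0.14 ± 0.11), and XPC. NKTR was at 94.8, 84.3 and 86.0 CPM in NTC, 82.3, 80.6 and 84.4 CPM in crXCR1, and 85.5, 76.0 and 90.9 CPM in crSUGP1. Its 3 groups overlapped, yet crXCR1 was lower in each experiment (-0.20, -0.07 and -0.03), and its interval from -0.27 to 0.07 held both 0 and the shift. The interval of OGG1 held the shift and not 0. None of these 6 departed from the shift, with or without the block, so they are candidates by value only. All 6 overlap a gene on the other strand, as 121 of the 215 members do (56.3%), and OGG1 and TADA3 overlap each other. Single libraries moved these values. Leaving out 1 library at a time, NKTR ran from -0.13 to -0.05 (without NTC replicate 1), RPL32 from -0.17 to -0.08 (without crXCR1 replicate 3), BHLHE40 from -0.25 to 0.03 and TADA3 from -0.22 to -0.03 (both highest without NTC replicate 3 and lowest without crXCR1 replicate 3). OGG1 ran from -0.17 to -0.12 and XPC from -0.19 to -0.10.

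The members farthest below 0, with all 3 crXCR1 libraries below the other 6 and at least 5 CPM, did not depart from the shift either. TMEM43, a protein of the inner nuclear membrane, was at 106, 103 and 88.8 CPM in NTC, 87.6, 81.4 and 70.6 CPM in crXCR1, and 107, 105 and 94.7 CPM in crSUGP1. All 3 crXCR1 libraries lay below the other 6, and by experiment the value was -0.28, -0.35 and -0.33. Next came ZNF619, a zinc-finger gene (-0.31 ± 0.09), CTDSPL, a small phosphatase (-0.30 ± 0.08), CMTM6, which keeps PD-L1 at the cell surface (-0.29 ± 0.11), HRH1 (-0.29 ± 0.07), SUSD5 (-0.28 ± 0.07), XYLB, a xylulokinase (-0.27 ± 0.12), AC090004.1 (-0.27 ± 0.08), KIAA1143 (-0.27 ± 0.06) and LSM3 of the U6 snRNP (-0.26 ± 0.07). Under the block the lowest adjusted p of departure among these 10 was 0.586 (edgeR, TMEM43). TMEM43, AC090004.1, XPC and LSM3 are neighbours 31.8 to 31.9 Mb from XCR1, and AC090004.1 overlaps XPC on the other strand.

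IRAK2, a kinase of Toll-like and interleukin-1 receptor signalling, stood lower still at a lower level. It was at 3.40, 3.22 and 2.95 CPM in NTC, 2.53, 2.53 and 2.15 CPM in crXCR1, and 3.79, 3.50 and 3.56 CPM in crSUGP1. The crXCR1 libraries lay below all others, with a log2 fold change of -0.41 ± 0.10 against NTC (edgeR adjusted p = 1) and -0.59 ± 0.10 against crSUGP1 (edgeR adjusted p = 0.0312).

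Whether single members kept their place between experiments was described by correlating their fold changes across genes. Over the 115 members at 20 CPM or more, rho was -0.11 between experiments 1 and 2, 0.26 between 1 and 3 and 0.36 between 2 and 3. Over 8207 genes of other chromosomes at that level it was -0.13, 0.12 and 0.39. Each experiment has its own NTC and crXCR1 library, and no test was made of the difference between members and other genes.

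Grouped by function, members of every kind were lower by a similar amount. All 14 members for DNA repair and chromosome stability were below 0 in crXCR1 against NTC (median -0.20), from FANCD2 of the Fanconi anaemia pathway (-0.26) to OGG1 (-0.14), with TOP2B, a DNA topoisomerase, of the highest level (-0.15). All 18 for ribosome, translation and RNA processing were below 0 (median -0.20), with NUP210 of the nuclear pore the nearest to 0 (-0.09). All 21 for metabolism and mitochondria were below 0 (median -0.22), from OXNAD1 (-0.35) to ATP2B2, a plasma membrane calcium pump (-0.05), with HIGD1A (-0.22) of the highest level. Over all genes at 1 CPM or more, 52.6% were below 0.

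The other lists each held 1 to 3 members above 0. For chromatin and transcription, 30 of 31 were below 0 (median -0.19), the exception being ZNF860 (0.01), which overlaps OSBPL10. For cytoskeleton and membrane traffic, 23 of 24 were below 0 (median -0.21), the exception being XIRP1, and the lowest RBSN, an endosomal fusion factor (-0.26). For protein modification and turnover, 19 of 20 were below 0 (median -0.20), from CHCHD4 of mitochondrial import (-0.25) to COLQ, the collagen tail of acetylcholinesterase (0.03), which overlaps EAF1. For signalling, 25 of 28 were below 0 (median -0.17), and VIPR1, OXTR, the oxytocin receptor (0.02), and SRGAP3 were above.

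Genes of 3p with a known role in disease by dose followed the region too. All 13 on that list were below 0 (median -0.20), from TGFBR2, a TGF-β receptor (-0.31 ± 0.12), to ITPR1, a calcium channel of the endoplasmic reticulum (-0.14 ± 0.17). Named after its values were seen, VHL, the ubiquitin ligase subunit that targets HIF, was at 81.3, 75.7 and 84.2 CPM in NTC, 67.2, 69.4 and 73.6 CPM in crXCR1, and 80.5, 76.4 and 79.6 CPM in crSUGP1. The crXCR1 libraries were below all others, with a log2 fold change of -0.20 ± 0.06 against NTC. The 36 long noncoding members, of which 33 were below 0, had a median of -0.14 against -0.20 for the 179 coding members. They were also lower in level, with a median of 3.17 CPM against 25.4 CPM. On other chromosomes noncoding genes had a median fold change of 0.01 and coding genes of -0.005. The part of level in this difference was not tested.

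At the edges of the selection, with no test, just inside 45 Mb lay KIF15, a mitotic kinesin (-0.22 ± 0.10), TGM4 (-0.17 ± 0.18) and ZDHHC3 (-0.21 ± 0.06), and just outside EXOSC7 of the RNA exosome (-0.29 ± 0.14), CLEC3B (-0.36 ± 0.16) and TMEM158 (-0.26 ± 0.31). Just above 1 CPM lay ATP2B2 (-0.05 ± 0.18), AC018809.2 (-0.02 ± 0.19) and AC025614.2 (-0.41 ± 0.59), and just below it LMCD1-AS1 (0.01 ± 0.26), PRRT3-AS1 (-0.02 ± 0.18) and AC098650.1 (-0.27 ± 0.18).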

How the data were processed

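PolyA RNA of 9 U-2 OS samples was sequenced paired-end. After trimming (Trim Galore 0.6.7 with cutadapt 2.4, by the submitters' processing notes) and alignment to GRCh38 with STAR 2.7.9a, the authors deposited raw counts, the number of read pairs that fell in a gene's exons, with no normalization. The study's methods name SeqMonk for counting. The strand used in counting is not given in the sources used here.

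Genes were kept if their log2 CPM exceeded -2 in any library, and the 21071 kept were scaled by TMM and fitted with edgeR 4.0.16 (R 4.3.3, quasi-likelihood, all 9 libraries, guide as the sole term, 6 residual degrees of freedom, Benjamini-Hochberg adjustment). Calls needed an adjusted p no higher than 0.05 and a log2 fold change of 0.5 or more in either direction. Fold changes within an experiment used log2(CPM + 0.01). Fold changes are given with the SE of the fit. The scripts were tested on simulated data. DESeq2 1.42.0, other scalings, filters and sample sets were alternatives. At 68712738 to 107952835 counts per library, members near 1 CPM had the widest errors.

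Same-numbered libraries share an experiment in the study's methods. Their deviations from the group means correlated at 0.498 to 0.902 over 9 pairs, against -0.854 to 0.66 over 18 others, so the experiment was added as a block in a further fit (4 residual degrees of freedom).

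The members and lists were chosen with earlier results of these data known. Named members were XIRP1 and DYNC1LI1, the 10 highest, the 6 nearest 0 at 50 CPM or more, the 10 of highest level and those called. Also named were the 10 lowest at 5 CPM or more whose 3 crXCR1 libraries lay below the other 6. Per list, the lowest, the highest and the one of highest level were named. In all, 143 members are in a list. Some genes that the rule names are not reported here. Fits without experiment 1 or 2 were an addition made with the data in view.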

Additional observations from a re-analysis of the deposited data

How the results depend on the processing

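The median log2 fold change of the members lay between -0.20 and -0.17 in crXCR1 against NTC, between -0.24 and -0.19 against crSUGP1 and between 0.01 and 0.04 in crSUGP1 against NTC under all alternatives run, and its sign was the same in each. Counts of called members were small and moved. With the experiment as a block they were 1 (crXCR1 against NTC), 4 (crXCR1 against crSUGP1) and 4 (crSUGP1 against NTC), against 0.00475, 3.90 and 2.85% of all genes, and 1 member, XIRP1, departed from the shift. The block added TMEM40 and AC097639.1 in both comparisons with crSUGP1, and XIRP1 and TGM4 in crSUGP1 against NTC. Without experiment 3 they were 1, 4 and 3 (0.00475, 2.33 and 1.99% of all genes), again with 1 departing. Nothing is read from the calls of XIRP1, which is a member only through its higher crXCR1 libraries. Without experiment 1 or 2 (added with the data in view), 0 members were called in crXCR1 against crSUGP1, against 0.00475 and 0.00949% of all genes. With no filter on low counts 1 departed. DESeq2 called 1 member in crSUGP1 against NTC, against 1.33% of the genes it gave an adjusted p. Fits over 6 libraries called 1 in crXCR1 against crSUGP1 (0.484% of all genes). With no fold minimum, 20 were called in crXCR1 against crSUGP1 and 1 in crSUGP1 against NTC. Over all 21071 genes tested these calls were 301 and 265. Leaving out 1 library at a time gave 0 to 2 calls in crXCR1 against crSUGP1, where 0.389 to 0.745% of all genes were called. There were 0 without crXCR1 replicate 1 or crSUGP1 replicate 2. The calls were 0 to 1 in crSUGP1 against NTC (0.437 to 0.774% of all genes) and 0 in crXCR1 against NTC (0% of all genes). In these fits 87.4 to 96.3% of members were below 0 in crXCR1 against NTC, the lowest without NTC replicate 3. With members at 10 CPM or more, 100% were below 0. The cause of these moves was not tested, beyond the fewer libraries or genes in each fit. Of 50 named genes under 19 settings, 38 kept their sign in all and 942 of 950 values stayed within 1 SE. Members at 1 to 5 CPM have errors close to the shift in size (median SE 0.15), and for 46 of those 54 the interval held both 0 and the shift, so whether these 46 were buffered was not detectable at this depth.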
